A study of Mus musculus with 2 samples.

Results

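The 9 genes described here, Mecom, Hlf, Meis1, Prdm16, Msi2, Fgd5, Procr, Mllt3 and Bmi1, are regulators and markers of self-renewal in haematopoietic stem cells. They were chosen by name, and every probe set whose platform annotation gives exactly 1 symbol that is a current or former name of one of them was used. This gave 27 probe sets for all 9 genes, of 18193 genes measured in all. They were read on 2 Affymetrix arrays, 1 labelled Satb1 and 1 labelled GFP, the control transduction, named by these labels below. Both carried RNA of gene-transduced LSK Flt3- marrow cells from wild-type C57BL6J mice, that is, cells without lineage markers or Flt3 and with Sca-1 and high c-Kit. The sources used here do not give the age of the mice or the number of animals or cultures behind each array. With 1 array per group there is no replicate error, so no difference below has a p-value or a standard error.

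Haematopoietic stem cells persist by dividing without losing their multipotency, a property called self-renewal. It depends on transcription factors that hold the stem cell programme in place (Mecom, Prdm16, Hlf, Meis1), on chromatin proteins that keep genes silent or transcribed (Bmi1, Mllt3), and on control of translation (Msi2). Procr and Fgd5 are better known as genes by which mouse stem cells are recognised and isolated.

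Values are MAS5 intensities, the authors' summary of each probe set on a linear scale. Intensities under 61.7, the median of all values, were raised to that floor before a log2 difference was taken, and a difference against a floored value is a bound. Signed numbers in brackets after 2 intensities are log2 differences, Satb1 minus GFP. Of the 27 probe sets, 18 lay above the floor on both arrays, 3 on 1 array and 6 on neither. Each gene is represented by its brightest probe set unless stated otherwise, and a gene is counted as above the floor where at least 1 array exceeded it. Intensities of different probe sets are not compared with each other, since probes differ in binding. In place of a replicate error, each difference was set beside the middle 95% of the differences of all probe sets in the same range of mean intensity that exceeded the floor on each array, which ran from -1.07 to 0.69 under 200, from -0.91 to 0.58 between 200 and 500, from -0.51 to 0.45 between 500 and 2000, and from -0.36 to 0.34 over 2000. This range describes how the 2 arrays differ and includes any real changes.

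Most of the self-renewal genes read alike on both arrays, and 2 of them, Hlf and Fgd5, were lower by over 1.5-fold on the Satb1 array, as were 3.91% of all genes above the floor. Of the 9 genes, 3 were higher by some amount (Mllt3, Bmi1 and Meis1) and 6 lower. Fgd5 alone was 2-fold apart, so that 1 of 9 (11.1%) was counted as 2-fold lower, where 0.86% of the 11048 genes above the floor were, and 0 were 2-fold higher, where 0.272% of all genes were. A count of 1 gene carries little weight, and the split of all genes depended on scaling: after quantile normalization 0.489% were higher and 0.543% lower. By probe set, 2 of the 21 above the floor on at least 1 array (9.52%) were 2-fold lower, 1 each of Hlf and Fgd5, against 0.853% of all such probe sets, and 0 were 2-fold higher, against 0.327%. After quantile normalization 0 of the 21 were 2-fold lower, with -0.99 for that of Hlf and -0.93 for that of Fgd5. The median log2 difference of the 9 genes was -0.13, beside -0.02 over all genes above the floor, of which 54.8% were lower. After quantile normalization 5 of the 9 were lower, with a median of -0.03, beside 49.6% of all genes. In a bulk preparation, fewer cells of a type and less RNA per cell cannot be told apart.

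**Figure D1:**
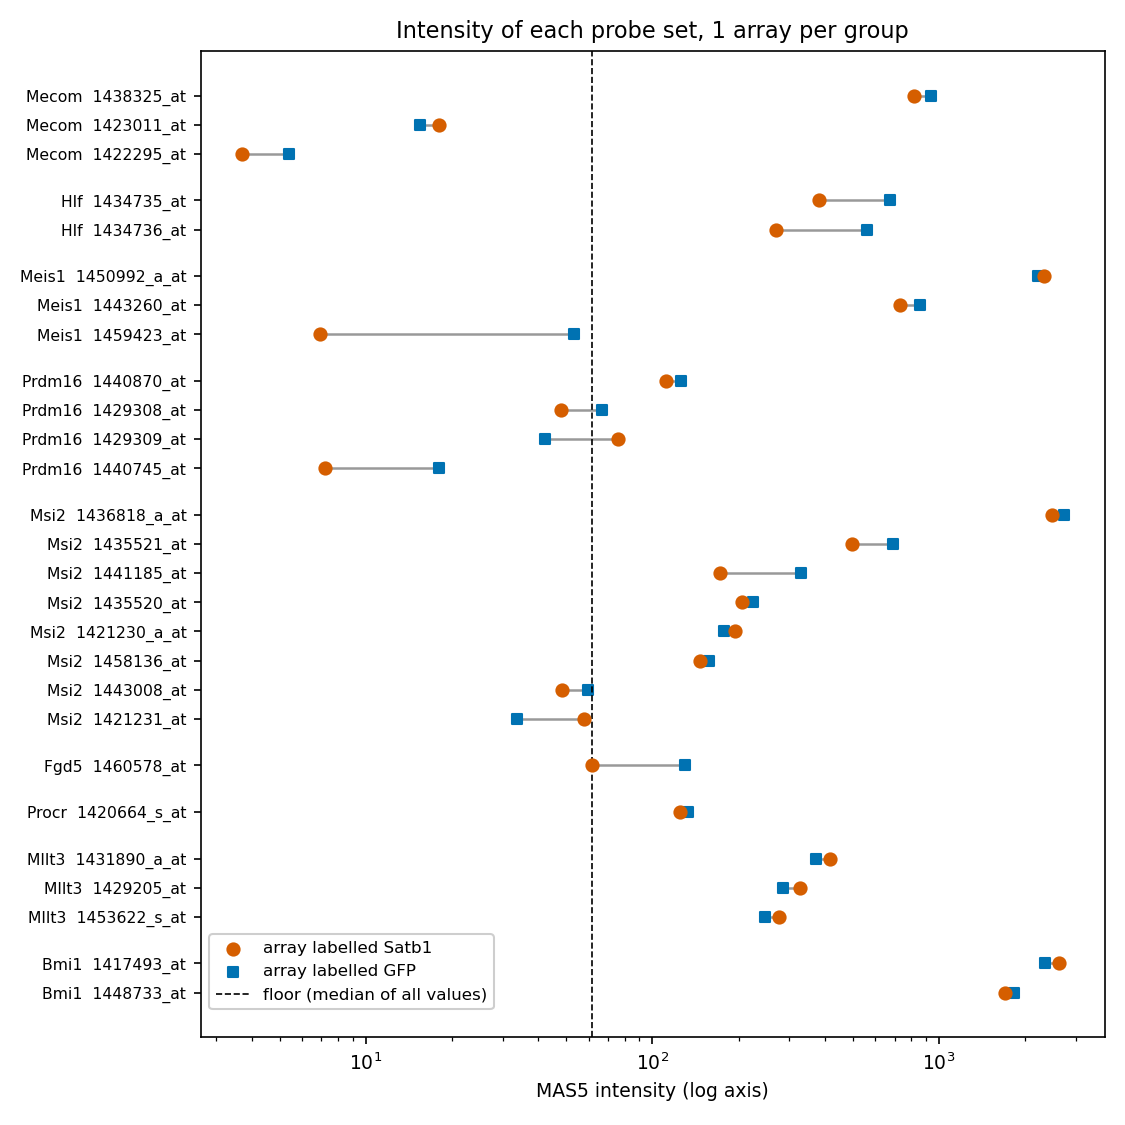
MAS5 intensity (horizontal log axis) of all 27 probe sets of the 9 genes, grouped by gene, with 1 point for the array labelled Satb1 (circle) and 1 for the array labelled GFP (square); the dashed line is the floor of 61.7. Both Hlf probe sets and the Fgd5 probe set have the Satb1 circle well to the left, while the Mllt3, Bmi1, Procr and brightest Meis1 and Msi2 probe sets have the 2 points close together.

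Hlf, a transcription factor of the PAR bZIP family that marks mouse stem cells and helps keep them quiescent, was the only one of the 9 with a difference of over 1.5-fold that more than 1 probe set shared. By 1434735_at it read 382 on the Satb1 array and 673 on the GFP array, a log2 difference of -0.82 (1.76-fold lower). The second, 1434736_at, read 270.3 on the Satb1 array and 562 on the GFP array, a difference of -1.06 (2.08-fold lower). Both probe sets were thus lower and above the floor on both arrays, and their differences lay 0.24 apart. The platform annotation lists the same source sequence for both, so their agreement carries less weight. Each probe set was outside the middle 95% of probe sets of like intensity. A lower value was found for 0.655% of probe sets in the range of the first and 1.39% in that of the second. The first, at a mean intensity of 507, was just over the edge of its range at 500. In the range between 200 and 500 it would have lain inside the limits of -0.91 and 0.58. Among all 11048 genes, 1.62% had a lower difference than Hlf. Its relatives in the family were less far apart. Dbp, a PAR bZIP factor known from the circadian clock, read 504 on the Satb1 array and 673 on the GFP array (-0.42), and Tef 663 on the Satb1 array and 715 on the GFP array (-0.11). Nfil3, a bZIP repressor that binds the same DNA sites, was on the other side, at 232 on the Satb1 array against 183 on the GFP array (0.34, chosen after its value was seen). The Nfil3 difference was inside the range of like probe sets.

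Fgd5 encodes an exchange factor that activates the small GTPase CDC42, and among the blood-forming cells of mouse marrow its expression is largely limited to stem cells. Its only probe set, 1460578_at, read 61.3 on the Satb1 array and 129 on the GFP array. The Satb1 value lay at the floor, so the gene was at least 2.10-fold lower, a log2 difference of -1.07. No second probe set was there to compare with, and the intensity was in the range where the arrays differed most. The gene was no longer 2-fold lower after quantile normalization (-0.93), with an offset of 50 in place of the floor (-0.69), or with the floor at the 75th percentile, where both of its values were under the floor. Among all genes above the floor, 0.67% had a lower difference. The other FGD genes and Cdc42, 6 in all, were above the floor, with 2 higher, 4 lower and a median of -0.16. None was counted as 2-fold apart, but Fgd6 was above the floor on the GFP array only, at 16.5 on the Satb1 array against 79.3 on the GFP array, so its -0.36 is a bound. Fgd4 read 769 on the Satb1 array and 822 on the GFP array (-0.10), while another of its probe sets was higher (0.18). Cdc42 itself read 11677 on the Satb1 array and 11105 on the GFP array (0.07). Fgd1 was lower at 125 on the Satb1 array against 180 on the GFP array (-0.53, chosen after its value was seen), inside the range of like probe sets.

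The upstream sequences of Hlf and Fgd5, the genes furthest below the GFP array, are shown with that of Bmi1, whose probe sets went both ways. Each is the 250 bases before the annotated start, 5′ to 3′ on the strand of the gene, from RefSeq on GRCm38.p6. Capitals mark, on both strands, the GATA site AGATAA, the ETS core AGGAAG, the E-box CACGTG, TGACGTCA (a cAMP response element, a motif added after the Hlf sequence was seen) and runs of at least 8 bases that are all A or T, since SATB1 is known to bind AT-rich DNA. The motifs do not overlap in these sequences.
Hlf, chr11:90390918-90391167, minus strand: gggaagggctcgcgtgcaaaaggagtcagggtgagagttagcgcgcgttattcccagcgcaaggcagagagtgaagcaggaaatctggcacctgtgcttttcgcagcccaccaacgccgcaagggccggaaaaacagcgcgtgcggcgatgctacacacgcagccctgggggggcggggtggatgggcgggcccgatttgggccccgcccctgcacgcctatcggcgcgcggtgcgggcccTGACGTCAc
Fgd5, chr6:91978715-91978964, plus strand: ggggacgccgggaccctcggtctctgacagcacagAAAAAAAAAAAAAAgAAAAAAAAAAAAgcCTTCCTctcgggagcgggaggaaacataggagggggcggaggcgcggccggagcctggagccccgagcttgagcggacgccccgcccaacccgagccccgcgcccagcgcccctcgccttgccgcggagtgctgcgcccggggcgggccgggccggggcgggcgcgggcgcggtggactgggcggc
Bmi1, chr2:18676768-18677017, plus strand: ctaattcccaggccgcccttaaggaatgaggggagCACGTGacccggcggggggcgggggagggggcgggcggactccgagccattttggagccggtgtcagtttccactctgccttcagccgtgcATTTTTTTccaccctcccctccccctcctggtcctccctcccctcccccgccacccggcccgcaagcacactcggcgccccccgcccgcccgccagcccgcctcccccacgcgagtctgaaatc

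The 3 sequences differ in what they hold. The Hlf sequence had the cAMP response element with its first base 9 bases before the start, a motif found in 1.55% of 32851 upstream sequences of this length, and no run of A and T. The motif was also in all 3 overlapping upstream sequences listed for Msi2, whose usable probe sets ran from -0.95 to 0.14. Whether the motif bears on the difference of either gene was not tested. The Fgd5 sequence held runs of 14 and 12 A next to each other and an AGGAAG on the opposite strand. Any run of at least 8 bases of A and T, in any mix, was found in 39.8% of all sequences, and an AGGAAG in 29.5%. The share with runs as long as those of Fgd5 was not counted. The Bmi1 sequence held an E-box, found in 6.02% of all, and a run of 8. AGATAA, found in 9.99% of all, was in none of the 3. All 3 were GC-rich, with 32.8%, 28.4% and 29.6% A and T in Hlf, Fgd5 and Bmi1, beside a median of 47.6%. These matches describe the letters in the window, and binding was not measured.

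**Figure D2:**
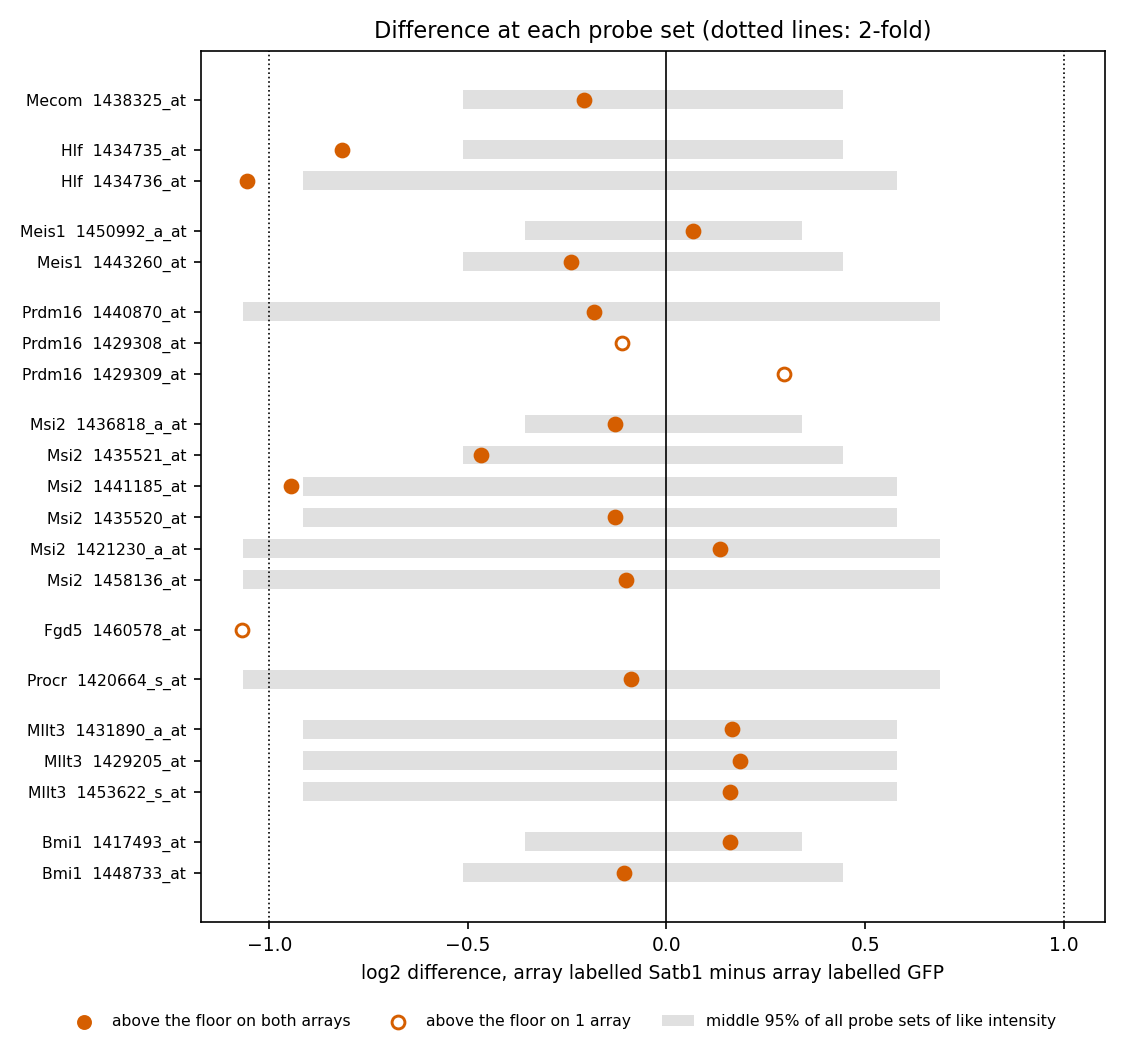
Log2 difference, array labelled Satb1 minus array labelled GFP, of the 21 probe sets above the floor on at least 1 array (filled, above it on both; open, on 1), grouped by gene, with 2-fold as dotted lines. Grey bars give the middle 95% of all probe sets of like mean intensity; both Hlf probe sets (-0.82 and -1.06) and 1 of Msi2 (-0.95) lie outside them, and the other 15 filled points lie inside.

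The other transcription factors were close to even. Mecom, which encodes the zinc finger factors EVI1 and MDS1-EVI1 needed to maintain stem cells, read 815 on the Satb1 array and 940.3 on the GFP array by 1438325_at (-0.21), inside the range of like probe sets. Its other probe sets carried no usable signal, at 18.0 on the Satb1 array against 15.5 on the GFP array for 1423011_at and 3.7 on the Satb1 array against 5.4 on the GFP array for 1422295_at. Prdm16, a PR domain factor related to Mecom, was dim. It read 111 on the Satb1 array and 126 on the GFP array by 1440870_at (-0.18). Of its other probe sets, 1429308_at read 47.8 on the Satb1 array and 66.7 on the GFP array, 1429309_at 75.7 on Satb1 and 42.1 on GFP, and 1440745_at 7.2 on Satb1 and 18.0 on GFP. Those that crossed the floor did so in opposite directions, although the same source sequence is listed for them. In the wider PRDM family 5 of 10 measured genes were above the floor, of which 4 were lower and 1 higher, with a median of -0.30 and 0 at 2-fold. Prdm15 read 577 on the Satb1 array against 787 on the GFP array (-0.45) and Prdm4 702 on the Satb1 array against 684 on the GFP array (0.04).

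Meis1, a TALE homeobox factor that binds DNA together with HOX and PBX proteins, depended on the probe set. The brightest, 1450992_a_at, whose suffix marks probes shared by transcript variants, read 2319 on the Satb1 array and 2212 on the GFP array (0.07). By contrast 1443260_at was lower, at 728 on the Satb1 array against 861 on the GFP array (-0.24), and 1459423_at was below the floor on both arrays, at 6.9 on the Satb1 array against 53.4 on the GFP array. Neither of the usable values left the range of like probe sets, so no direction is given for Meis1. Its HOX partners were lower in 4 of the 5 genes above the floor, with a median of -0.48 and 0 at 2-fold. Hoxa9, a HOX factor abundant in blood progenitors, read 3262 on the Satb1 array and 4612 on the GFP array (-0.50), although its second probe set differed by only -0.08. Hoxa5 was near even, at 390.0 on the Satb1 array and 411 on the GFP array (-0.07). Hoxb4, which expands stem cells when overexpressed, read 122 on the Satb1 array against 194 on the GFP array (-0.66, chosen after its value was seen). The Hoxb4 difference was inside the range of like probe sets. Of the other TALE genes, 3 were higher and 3 lower. Pknox1 read 1096 on the Satb1 array against 955 on the GFP array (0.20) and Pbx2 893 on the Satb1 array against 1124 on the GFP array (-0.33), each with its 3 probe sets on the same side.

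Msi2 encodes an RNA-binding protein that controls translation in stem cells and had the most probe sets, 8. The brightest, 1436818_a_at, read 2485 on the Satb1 array and 2721 on the GFP array (-0.13). Of the 6 above the floor on both arrays, 5 were lower and 1 higher, over a span of 1.08 on the log2 scale. The furthest were 1441185_at, at 172 on the Satb1 array against 331 on the GFP array (-0.95, 1.93-fold lower), and 1435521_at, at 498 on the Satb1 array against 688 on the GFP array (-0.47). The first of these was just outside the range of like probe sets and the second inside it. The others were nearly even: 1435520_at read 205 on the Satb1 array and 224 on the GFP array (-0.13) and 1458136_at 147 on Satb1 and 158 on GFP (-0.10), while 1421230_a_at was higher, at 195 on the Satb1 array against 177 on the GFP array (0.14). After quantile normalization 1458136_at was on the higher side too (0.05). The probe sets of Msi2 did not agree on a size, and the sources used here do not say which parts of the transcript they match. The same source sequence is listed for 1435521_at (-0.47) and 1435520_at (-0.13), which differed in size all the same. Syncrip, an RNA-binding protein known to interact with MSI2, read 4204 on the Satb1 array against 4494 on the GFP array (-0.10), while 4 of its 5 probe sets were higher. Igf2bp3 read 135 on the Satb1 array against 119 on the GFP array (0.19), while another of its probe sets was lower (-0.25).

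Procr encodes the endothelial protein C receptor, a surface protein used to isolate stem cells. Its only probe set, 1420664_s_at, whose suffix warns that its probes may also match other genes, read 125 on the Satb1 array and 133 on the GFP array (-0.09), and after quantile normalization it lay on the other side of 0 (0.06). Other genes of the protein C pathway went both ways, with 3 of 5 above the floor higher, 2 lower and 0 at 2-fold. F2r, the thrombin receptor PAR1 that activated protein C also cleaves, read 10924 on the Satb1 array against 8779 on the GFP array (0.32), with both of its probe sets higher, and F2rl3 630.1 on the Satb1 array against 563 on the GFP array (0.16). Thrombomodulin, Thbd, which turns thrombin into an activator of protein C, was lower at 134 on the Satb1 array against 233 on the GFP array (-0.79, chosen after its value was seen). The Thbd difference was inside the range of like probe sets.

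The chromatin genes were slightly higher or mixed. Mllt3 encodes AF9, a YEATS domain protein that links acetylated histones to transcription elongation and DOT1L, and is known from human cells to sustain cultured stem cells. All 3 of its probe sets were higher by nearly the same amount. They read 417, 326 and 276.5 on the Satb1 array, against 372, 286.5 and 247 on the GFP array (0.16, 0.19 and 0.16 for 1431890_a_at, 1429205_at and 1453622_s_at). This span of 0.03 was the narrowest among the 5 genes with several usable probe sets, yet each value was inside the range of like probe sets. The list for the super elongation and DOT1L complexes also held related factors (Kmt2a, Men1, Yeats2 and Yeats4). In this list 8 of 16 genes were higher, 8 lower and 0 at 2-fold, with a median of 0.00. Cdk9, the kinase that releases paused polymerase, read 6640.3 on the Satb1 array against 5754 on the GFP array (0.21), and Aff3 3552 on the Satb1 array against 3376 on the GFP array (0.07).

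Bmi1, a subunit of Polycomb repressive complex 1 that silences the Cdkn2a locus in stem cells, gave opposite signs. Probe set 1417493_at read 2615 on the Satb1 array and 2340.5 on the GFP array (0.16), whereas 1448733_at read 1698.5 on the Satb1 array and 1829 on the GFP array (-0.11). Both were inside the range of like probe sets, and the platform annotation lists the same source sequence for both. Of the genes listed for the several forms of Polycomb repressive complex 1, 14 of 15 measured were above the floor, 6 higher and 8 lower. Their median was -0.03, with 0 at 2-fold. The ubiquitin ligase Rnf2 read 2867 on the Satb1 array against 2625 on the GFP array (0.13) and Yaf2 3336 on the Satb1 array against 3621 on the GFP array (-0.12). In both genes another probe set went the other way, at -0.13 for Rnf2 and 0.09 for Yaf2. Cdkn2a itself, named after its value was seen, was below the floor, at 2.8 on the Satb1 array against 26.4 on the GFP array.

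Agreement between probe sets could be examined for 5 genes. The signs were shared in 2 of them, Hlf (lower) and Mllt3 (higher), and mixed in Meis1, Msi2 and Bmi1. Over the 18 probe sets that exceeded the floor on each array, 12 were lower (66.7%) and 6 higher, with differences from -1.06 to 0.19 and a median of -0.12, while 52.1% of all 18506 such probe sets with 1 symbol were lower, with a median of -0.01. After quantile normalization 10 of the 18 were lower, with a median of -0.02, beside 45.5% of all. Probe sets of 1 gene share their RNA and are not replicates, and Msi2 gave 6 of the 18.

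**Figure D3:**
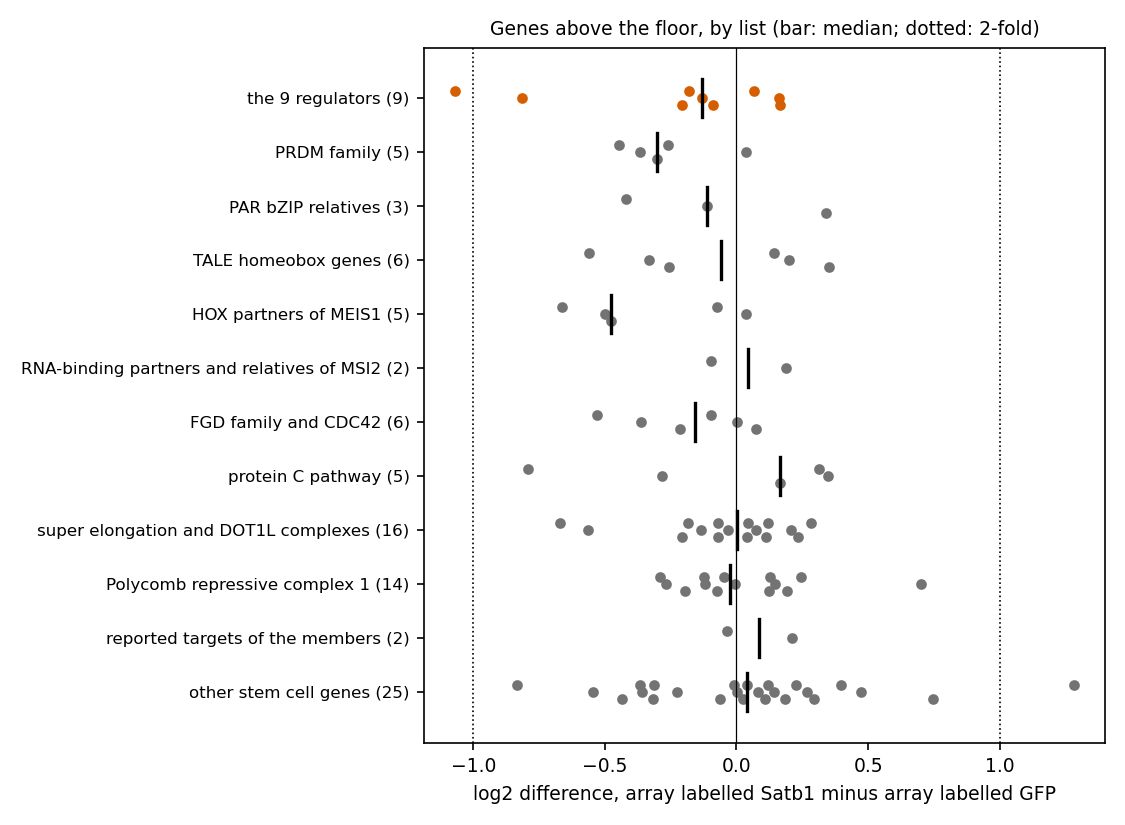
Log2 difference, array labelled Satb1 minus array labelled GFP, of the 9 regulators (top) and of the genes of 11 related lists that were above the floor, 1 point per gene, with the number of genes in brackets, medians as black bars and 2-fold as dotted lines. Fgd5 (-1.07) and Slamf1 (1.28) are the points beyond 2-fold.

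Other genes of the stem cell state did not follow Hlf and Fgd5 as a group. Of 25 such genes above the floor, 15 were higher and 10 lower, with a median of 0.04. Cdkn1c (53.2 on the Satb1 array against 72.1 on the GFP array) and Robo4 (24.5 on the Satb1 array against 79.6 on the GFP array) exceeded it on the GFP array only, so their differences are bounds. Slamf1, the gene of the stem cell surface marker CD150, was the one at 2-fold and lay on the opposite side from Fgd5, at 233 on the Satb1 array against 95.7 on the GFP array (1.28). That value came from 1 of 3 probe sets, since the others were not above the floor on both arrays. Mycn, a MYC family factor, was lower at 14179 on the Satb1 array against 25285 on the GFP array (-0.83), with all 3 of its probe sets lower, and Cd34 was even at 8197 on the Satb1 array against 8563 on the GFP array (-0.06). Among reported targets of the 9 genes, Gata2 read 2629 on the Satb1 array against 2698 on the GFP array (-0.04), while another of its probe sets was higher (0.17). Hif1a read 3899 on the Satb1 array against 3373 on the GFP array (0.21). Across all 11 related lists, 42 of 89 genes above the floor were higher and 47 lower, with a median of -0.03, 1 gene 2-fold higher and 0 2-fold lower.

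Several facts about the arrays stand beside these values. The introduced gene was not seen: Satb1 read 909 on the Satb1 array and 1116 on the GFP array by its brightest probe set, and 0 of its 5 probe sets was higher. The sources used here do not say whether they match the introduced sequence, so all directions rest on the labels. Of 3 measured progenitor markers, Cd34 (-0.06) and Flt3 (-0.06) were lower. Kit was higher by its brightest probe set (0.04) and lower by another (-0.42). Flt3 RNA was present, though the cells were sorted as Flt3-, at 1334 on the Satb1 array and 1390.4 on the GFP array. Fgd5, Procr and Mecom are also expressed in endothelial cells. Of 8 endothelial markers 6 were above the floor, all of them higher on the Satb1 array by their brightest probe sets. They differed by 0.01 to 0.79 (the last a bound, for Kdr), but 2 of the 4 Egfl7 probe sets were lower, down to -0.19. Esam and Tek are also counted among the other stem cell genes. Summed intensities of the endothelial markers were 2691 on the Satb1 array and 2481 on the GFP array. The defining marker Cdh5 was below the floor on both arrays. Of 6 marrow stroma markers 2 were above the floor, with sums of 1159 on Satb1 and 1125 on GFP. Granulocyte and monocyte markers moved both ways, 4 of 10 at 2-fold higher and 2 lower, beside 0.272% and 0.86% of all genes above the floor. They ran from -3.28 for Ms4a3 (268.6 on Satb1 against 2609 on GFP) to 2.16 for Camp (834 on Satb1 against 186.5 on GFP). Their sums, which are weighted to the brightest markers, were 55247 on Satb1 and 52913 on GFP. Mast cell and basophil markers were lower in 4 of 5, 3 of them by 2-fold, beside 0.86% of all genes above the floor. Prg2 was 4.25-fold higher, and the sums of these markers were 8245 on Satb1 and 13890 on GFP. All 5 megakaryocyte markers were higher, with sums of 29403 on Satb1 and 25662 on GFP. For comparison, 54.8% of the 11048 genes had a negative difference. Erythroid markers were higher in the 2 of 4 above the floor (326 on Satb1 and 245 on GFP). Lymphoid markers were lower in the 2 of 7 above the floor (318 on Satb1 and 514 on GFP). Of these, 1 was 2-fold lower, beside 0.86% of all genes above the floor. It was Dntt, at 80.1 on Satb1 against 194.8 on GFP (-1.28), while Il7r differed by -0.26. The part of these cell types in the differences of Hlf and Fgd5 was not tested.

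**Figure D4:**
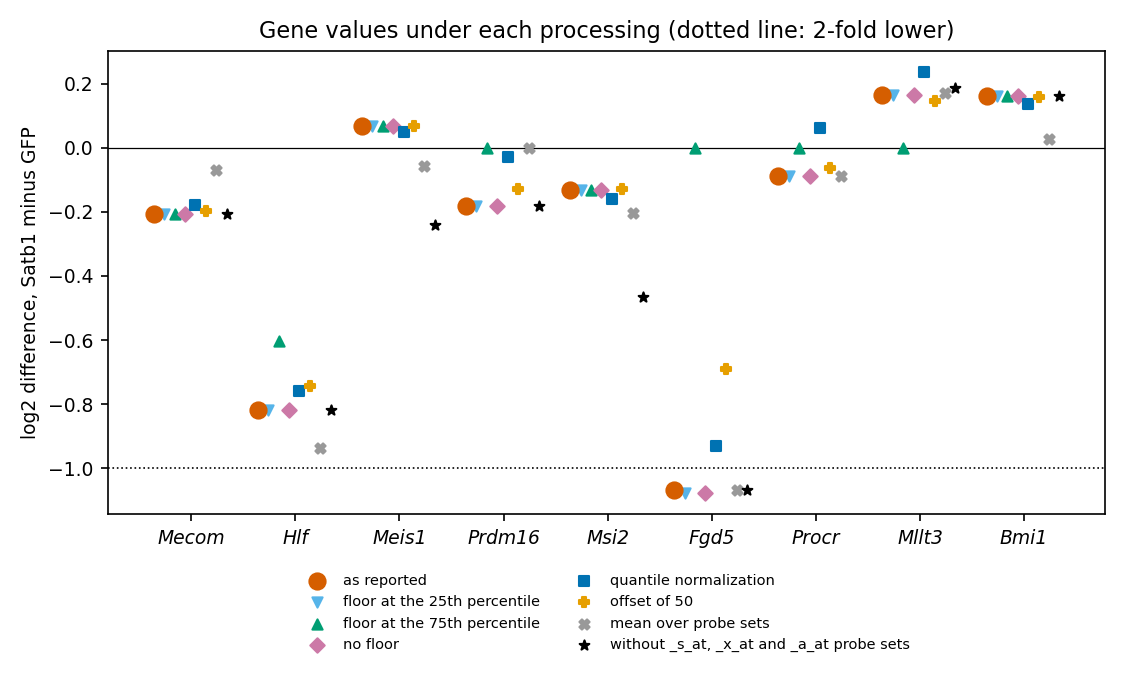
Log2 difference, Satb1 minus GFP, of each of the 9 genes as reported (large circles) and under up to 7 other ways of processing the intensities (small symbols; 6 for Procr, which has no value without multi-transcript probe sets), with 2-fold lower as a dotted line. Hlf stays between -0.94 and -0.60 throughout, Fgd5 ranges from -1.08 to 0.00, and Meis1, Prdm16 and Procr have symbols on both sides of 0.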

How the data were processed

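Total RNA of the transduced cells was made into biotin-labelled cRNA and hybridised to 2 arrays, 1 per group. Intensities were deposited by the authors as MAS5 values on a linear scale, per the submitters' processing notes. The sources used here give no version or scaling target. Trimmed means, leaving out 2% at either end, were 498 on Satb1 and 499 on GFP. The table held 45037 probe sets, of which 34945 had 1 gene symbol, 932 several and 9160 none. Of the single symbols, 34741 were brought up to date by their Entrez ID. Intensities were used without further normalization (Python 3.11.15, numpy 2.4.6, pandas 2.3.3). They were raised to the floor of 61.7 and turned into log2 differences, Satb1 minus GFP. The threshold was 2-fold, and no test was made. The 9 genes and the 11 lists were chosen with earlier results of these data known. Besides the 9, the text names the Satb1 probe sets and, per list, up to 4 genes at 2-fold and the 2 brightest. Genes outside this rule are marked or are cell type markers. Detection calls were not used here. Precision is limited by having only 2 arrays. The calculation of differences per gene was checked on simulated data with known changes. These were large changes in bright genes only, so the check does not cover smaller differences or dim genes such as Fgd5.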

Additional observations from a re-analysis of the deposited data

How the results depend on the processing

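With 1 array per group, no replicate could be left out, and no paired analysis was possible because each group had 1 array. The single 2-fold lower gene, Fgd5, was no longer 2-fold lower with the floor at the 75th percentile (0 genes), after quantile normalization (0, at -0.93), with an offset of 50 (0, at -0.69) or at a 3-fold threshold (0), and 2 genes (with Hlf) were lower at 1.5-fold, beside 3.91% of all genes. The count of probe sets 2-fold lower, 2 as reported, was 0 in each of those 4 settings, 4 with no floor and 4 at 1.5-fold. The rise with no floor came from 1459423_at of Meis1 and 1440745_at of Prdm16, which were below the floor on both arrays. Of all genes, 2.15% were 2-fold lower with no floor, beside 0.86% as reported. The share of all probe sets was not counted in these settings. No gene was 2-fold higher in any setting. The median of the genes ran from -0.22 without multi-transcript probe sets (8 genes, since Procr has no other) to 0.00 under the floor at the 75th percentile, and was -0.03 after quantile normalization. That normalization left 54 of all genes 2-fold higher and 60 lower, beside 30 and 95 as reported, and moved the median of all genes to 0.00. Of 62 gene values in the 7 other settings (6 for Procr), 54 kept their sign, 4 became 0 at the floor and 4 changed sign: Meis1 with the mean over probe sets and without multi-transcript probe sets (-0.24), Prdm16 with the mean over probe sets, and Procr after quantile normalization (0.06). Hlf was lower in all 7.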
